A study of Mus musculus with 12 samples.

Results

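The interferon-induced genes Irf7, Usp18, Ifit1, Ifit3, Rsad2, Oasl2 and Isg15 and the ubiquitin-like modifier gene Ubd were examined in mouse liver. Every probe set annotated to exactly 1 of these 8 symbols was taken, whatever its values, while the symbols themselves were picked with earlier results of these data known. This gave 9 of the 45101 probe sets on the array, for 7 of the 18193 genes with a probe set of their own. Rsad2 had 3 probe sets and each of the 6 others had 1. Isg15 had none, because the 1 probe set that lists it also lists another gene, so no level is given for it.

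The arrays were Affymetrix mouse whole-genome arrays, 12 in all, 1 per male mouse of the 129J background. The 4 labelled groups of 3 mice were wild type (WT) at 6 months, the IQGAP2 knockout (KO) at 6 months, WT at 24 months and KO at 24 months. RNA came from hepatocellular carcinoma (HCC) tumors in the last group and from normal liver in the others, so age and tumor tissue cannot be told apart within the KO. IQGAP2 is a scaffold protein of the IQGAP family that is abundant in liver. Values are deposited log2 intensities, and a difference of 1 is a doubling.

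The labels did not match the deleted gene. Iqgap2 read 8.24 to 8.38 in the arrays labelled WT 6 months and 8.07 to 8.68 in those labelled KO 6 months. It read 11.92 to 12.30 in the arrays labelled WT 24 months and 12.05 to 12.15 in those labelled KO 24 months tumor. Low Iqgap2 therefore stood in 1 WT and 1 KO group by label, and the alpha-fetoprotein gene Afp, a marker of fetal liver and of HCC, averaged 12.79 in the arrays labelled WT 6 months against 6.21 to 6.74 elsewhere on its brightest probe set. If the label WT 6 months were exchanged with KO 24 months tumor, the same 4 pairs of arrays would be compared under other names and the interaction of genotype and age would keep its value. The arrays are therefore named by their labels throughout, and every direction by genotype or age below holds only as far as those labels do. Hepatocyte markers such as Alb were bright in all 4 groups, with a list mean of 13.99 to 14.35 per array over 6 genes.

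Type I interferons bind a receptor of the subunits Ifnar1 and Ifnar2, and the kinases Jak1 and Tyk2 then start a signal that reaches a complex containing Irf9. This complex binds the interferon-stimulated response element (ISRE) in the promoters of antiviral genes. Irf7 is itself induced this way and amplifies further interferon production, whereas Usp18 removes the modifier Isg15 from proteins and restrains signaling at the receptor. Ubd encodes FAT10, a modifier that delivers proteins to the proteasome and is induced mainly by interferon gamma and TNF. FAT10 is known for its high level in many liver cancers.

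Promoter sequences were read from RefSeq entries of build GRCm38.p6 to show which members carry the elements of these pathways. Of the 8 symbols, 7 had an entry, and Usp18 had none. The ISRE core GAAANNGAAA, or TTTCNNTTTC on the other strand, was found within 250 bases before the start of 4 of these 7 genes, among them Isg15, against 2.98% of all 32851 promoters. The interferon gamma element (GAS) core TTCNNNGAA, which reads the same on either strand, was found in 0 of the 7 and in 7.02% of all promoters. The NF-kB consensus, searched on both strands, was found in Ubd alone among the 7 and in 7.25% of all promoters. These motifs are descriptions of letters in a window and not bound sites, and their absence from a window says nothing of the factor. The bases just before the start are printed 5′ to 3′ on the strand of the gene, with ISRE matches in capitals for Ifit1, Ifit3 and Rsad2, the NF-kB match in capitals for Ubd, and Irf7 shown as a member without a match.
Ifit1: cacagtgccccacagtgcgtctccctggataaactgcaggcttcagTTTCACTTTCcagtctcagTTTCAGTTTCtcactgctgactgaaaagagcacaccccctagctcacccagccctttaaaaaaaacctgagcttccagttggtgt
Ifit3: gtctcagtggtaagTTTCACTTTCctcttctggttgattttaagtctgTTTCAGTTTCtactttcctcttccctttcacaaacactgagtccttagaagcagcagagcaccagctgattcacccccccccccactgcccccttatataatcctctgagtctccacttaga
Rsad2: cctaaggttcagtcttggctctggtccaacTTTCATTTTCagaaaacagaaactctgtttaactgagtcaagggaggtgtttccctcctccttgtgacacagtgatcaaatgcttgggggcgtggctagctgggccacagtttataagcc
Irf7: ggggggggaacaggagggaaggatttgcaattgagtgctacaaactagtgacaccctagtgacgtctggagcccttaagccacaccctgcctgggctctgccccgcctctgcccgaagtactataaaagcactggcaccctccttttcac
Ubd: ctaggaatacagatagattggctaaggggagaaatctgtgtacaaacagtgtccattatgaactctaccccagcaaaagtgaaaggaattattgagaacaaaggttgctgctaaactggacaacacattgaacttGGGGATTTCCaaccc
The stretch of Ifit1 is chr19:34640739-34640888 on the plus strand, with matches that begin 104 and 85 bases before the start. That of Ifit3 is chr19:34583359-34583528 on the plus strand, with matches at 156 and 122 bases, and both matches have the same letters as those of Ifit1. Rsad2 has its match at 120 bases, in chr12:26456453-26456602 on the minus strand. Irf7 is shown over chr7:141266425-141266574 on the minus strand. The match of Ubd begins 15 bases before the start, in chr17:37193742-37193891 on the plus strand.

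Irf7 was high in the arrays labelled WT 24 months. It read 8.01, 8.16 and 7.73 in WT 6 months, 7.93, 7.59 and 7.82 in KO 6 months, 11.25, 8.94 and 10.21 in WT 24 months and 7.63, 7.33 and 7.22 in KO 24 months tumor. All 3 arrays labelled WT 24 months lay above the 9 others. Usp18 read 8.97, 9.54 and 11.19 in WT 6 months, 7.28, 6.88 and 7.01 in KO 6 months, 9.95, 7.24 and 8.93 in WT 24 months and 6.05, 5.45 and 5.92 in KO 24 months tumor. The arrays labelled WT 6 months did not overlap either KO group, and the tumor arrays lay below all others.

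Ifit1 and Ifit3 encode proteins that bind foreign RNA and act in one complex. Ifit1 read 6.78, 7.30 and 6.72 in WT 6 months, 6.90, 5.91 and 6.31 in KO 6 months, 8.33, 5.53 and 7.67 in WT 24 months and 6.06, 5.23 and 5.57 in KO 24 months tumor. Ifit3 read 7.71, 8.20 and 7.35 in WT 6 months, 7.59, 7.36 and 7.54 in KO 6 months, 8.43, 6.89 and 9.12 in WT 24 months and 7.12, 6.79 and 6.82 in KO 24 months tumor. For both genes replicates 1 and 3 of WT 24 months were above the 9 arrays of the other groups, while replicate 2 lay among the tumor arrays.

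Rsad2 encodes viperin, an enzyme that makes a chain-terminating nucleotide against viral polymerases. On its brightest probe set it read 8.25, 8.40 and 7.90 in WT 6 months, 8.09, 7.76 and 8.0 in KO 6 months, 8.09, 7.34 and 9.10 in WT 24 months and 7.69, 7.31 and 6.91 in KO 24 months tumor. The 2 other Rsad2 probe sets read between 4.36 and 6.01 on all 12 arrays, and neither passed the test in any comparison. Oasl2, a member of the oligoadenylate synthetase-like family, read 4.58, 4.92 and 4.76 in WT 6 months, 5.19, 4.97 and 4.92 in KO 6 months, 5.88, 4.52 and 7.77 in WT 24 months and 4.32, 4.75 and 4.77 in KO 24 months tumor. Replicate 3 of WT 24 months was thus the highest array for both genes.

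Ubd, like Usp18, had its highest mean in the arrays labelled WT 6 months. It read 7.35, 9.88 and 6.92 in WT 6 months, 4.20, 3.90 and 4.16 in KO 6 months, 4.09, 4.21 and 7.06 in WT 24 months and 3.94, 4.24 and 4.12 in KO 24 months tumor. All 3 arrays labelled WT 6 months and replicate 3 of WT 24 months were at 6.92 or above, and the other 8 arrays were at 4.24 or below. No detection call was used here, so no statement is made on whether Ubd RNA was present in those 8.

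**Figure D1:**
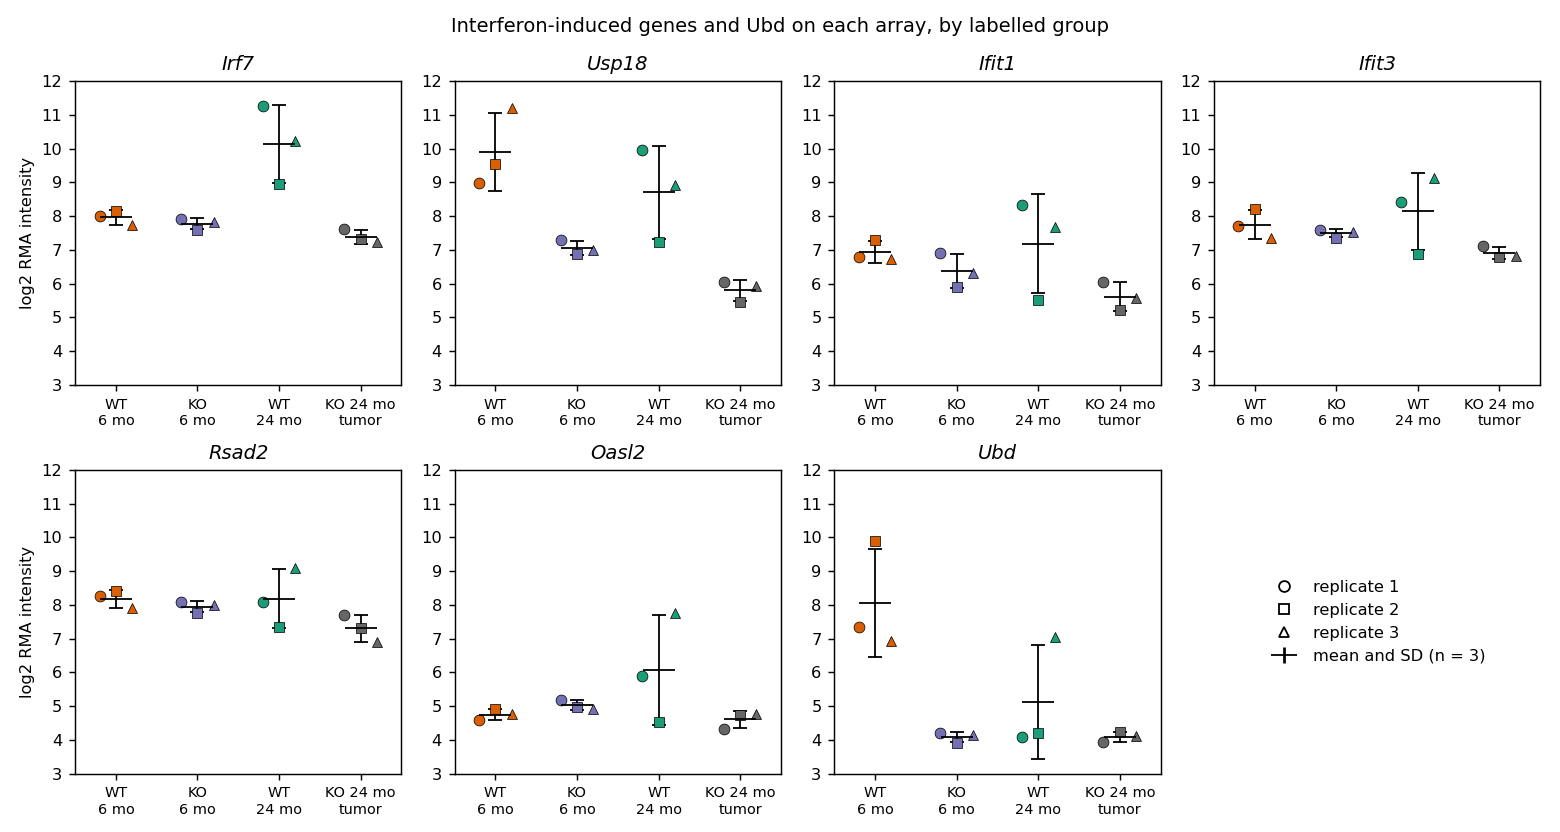
Log2 RMA intensity (vertical axis) of the brightest probe set of each member on every array, by labelled group with ages in months (horizontal axis). Symbols mark replicate number, and bars give the mean and SD of 3 arrays. Irf7 is highest in all 3 arrays labelled WT 24 months, at 8.94 to 11.25, and Ubd lies at 6.92 to 9.88 in those labelled WT 6 months.

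At 6 months, Ubd and Usp18 were lower in the arrays labelled KO than in those labelled WT. Ubd averaged 4.09 ± 0.16 against 8.05 ± 1.60 (SD, n = 3 each), a log2 difference of -3.96 (SE 0.80, limma adjusted p = 0.0077), with no fold given because it was not known whether the low arrays were above background. Usp18 averaged 7.06 ± 0.21 against 9.90 ± 1.16 (SD, n = 3 each), a log2 difference of -2.84 (SE 0.63, limma adjusted p = 0.0128) and a fold of 7.16. For both genes the KO arrays lay below every WT array, and both stayed past the threshold when any single array was left out. In all, 2 of the 9 member probe sets were called lower, where 6.03% of all probe sets were called lower, and 0 were called higher, where 6.08% of all were. No member probe set had a positive difference with an unadjusted p under 0.05. The median difference of the 7 genes was -0.26, against 0.04 over all probe sets. Irf7 was not among the genes that fell, with a log2 difference of -0.18 (95% interval -1.10 to 0.73), and Oasl2 was at 0.27 (-0.99 to 1.53). With labels exchanged, this comparison would be one of KO livers at 6 months against KO tumors.

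At 24 months, Irf7 was lower in the arrays labelled KO tumor than in those labelled WT. It averaged 7.39 ± 0.21 against 10.13 ± 1.16 (SD, n = 3 each), a log2 difference of -2.74 (SE 0.42, limma adjusted p = 0.0295) and a fold of 6.68. Of the 9 member probe sets 1 was called lower, where 0.115% of all probe sets were called lower, and 0 were called higher, where 0.122% of all were. All 9 differences were negative, and 6 had an unadjusted p under 0.05, where 5.83% of all probe sets were lower at that p. The median of the 7 genes was -1.44, against 0.05 over all probe sets. Usp18, 5.80 ± 0.31 against 8.70 ± 1.37 (SD, n = 3 each), had the largest difference at -2.90 (SE 0.63) but missed the threshold (limma adjusted p = 0.0883), although its groups did not overlap. Ifit1 was at -1.56, Oasl2 at -1.44, Ifit3 at -1.24, Ubd at -1.02 and Rsad2 at -0.87, and the groups of each of these 5 genes overlapped.

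The count at 24 months moved when single arrays were left out. Without replicate 2 of WT 24 months, the count of member probe sets called lower rose to 4, since Usp18 (log2 difference -3.63, limma adjusted p = 0.0243), Ifit1 (-2.38, 0.0174) and Ifit3 (-1.87, 0.0136) passed beside Irf7. The call of Irf7 held without replicate 1, 2 or 3 of WT 24 months, at adjusted p values of 0.00846, 0.000677 and 0.0478. It ended when any array labelled KO 6 months was left out, at adjusted p values of 0.0513, 0.0537 and 0.0557 for replicates 1 to 3, although these arrays enter only through the shared spread. It also ended without replicate 1, 2 or 3 of KO 24 months tumor, at 0.0987, 0.143 and 0.105. The difference of Irf7 itself stayed between -3.34 and -2.18 in all 12 of these fits, and with only the groups compared in the fit its call ended at 0.204. With labels exchanged, this comparison would set WT livers at 6 months against WT livers at 24 months.

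Between the arrays labelled KO 24 months tumor and KO 6 months, limma called 0 member probe sets higher, where 0.0178% of all probe sets were called, and 0 lower, where 0.00222% of all were. None of the 9 had an unadjusted p under 0.05, where 6.11% of all probe sets did, while 8 of the 9 differences were negative. The median of the 7 genes was -0.58, against 0.00 over all probe sets. Usp18 had the largest difference at -1.25 (95% interval -2.63 to 0.12), and its tumor arrays lay below those of KO 6 months. Ubd was at 0.01 (-1.73 to 1.76). This interval uses the spread shared by all 4 groups, and the SDs of Ubd were 0.16 and 0.15 in these groups against 1.60 and 1.68 in the WT groups. With only the KO groups in the fit, Usp18 was called lower (limma adjusted p = 0.0315). Under exchanged labels, this comparison would set WT livers at 6 months against KO livers at 6 months.

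Between WT 24 months and WT 6 months by label, Irf7 and Ubd moved in opposite directions. Irf7 was higher at 24 months by a log2 difference of 2.17 (SE 0.42, limma adjusted p = 0.00725), a fold of 4.49, with no overlap between the groups and a call that held without any single array but ended with only the WT groups in the fit (adjusted p = 0.0973). Ubd was lower at 24 months by -2.93 (SE 0.80, limma adjusted p = 0.0423), and its groups overlapped, since replicate 3 of WT 24 months read 7.06. The call of Ubd ended in 10 of the 12 fits with an array left out, at adjusted p values of 0.0544 to 0.13, and with only the WT groups in the fit, at 0.227. It held only without replicate 3 of WT 6 months or without replicate 3 of WT 24 months, and in the latter case the difference was -3.90 (limma adjusted p = 0.00276). Thus 1 of 9 member probe sets was called higher, where 3.8% of all probe sets were, and 1 lower, where 4.96% of all were. Oasl2 was at 1.30 (limma adjusted p = 0.223) and Usp18 at -1.19 (0.327), and without replicate 2 of WT 24 months Oasl2 (2.07, limma adjusted p = 0.0113) and Ifit3 (1.03, 0.0307) were called higher as well. The median of the 7 genes was 0.24, against 0.00 over all probe sets. Under exchanged labels, this comparison would set WT livers at 24 months against KO tumors, and Ubd would then be higher in the tumors.

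The interaction asks whether the difference between the groups labelled 24 and 6 months was the same in both genotypes. For Irf7 it was -2.56 (SE 0.59, limma adjusted p = 0.0400), the only member probe set of 9 called lower, where 1.42% of all probe sets were called lower. Called higher were 0 members, where 1.73% of all probe sets were, and Ubd alone had a positive value with an unadjusted p under 0.05. The interaction of Irf7 had an adjusted p above the threshold in 10 of the 12 fits with an array left out, up to 0.102, and its value stayed between -3.15 and -2.0. For Ubd it was 2.94 (SE 1.13, limma adjusted p = 0.233), and without replicate 3 of WT 24 months it was 3.91 (limma adjusted p = 0.0273). Ifit3 (-1.61, limma adjusted p = 0.0276) and Oasl2 (-2.48, 0.0367) passed when replicate 2 of WT 24 months was left out.

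**Figure D2:**
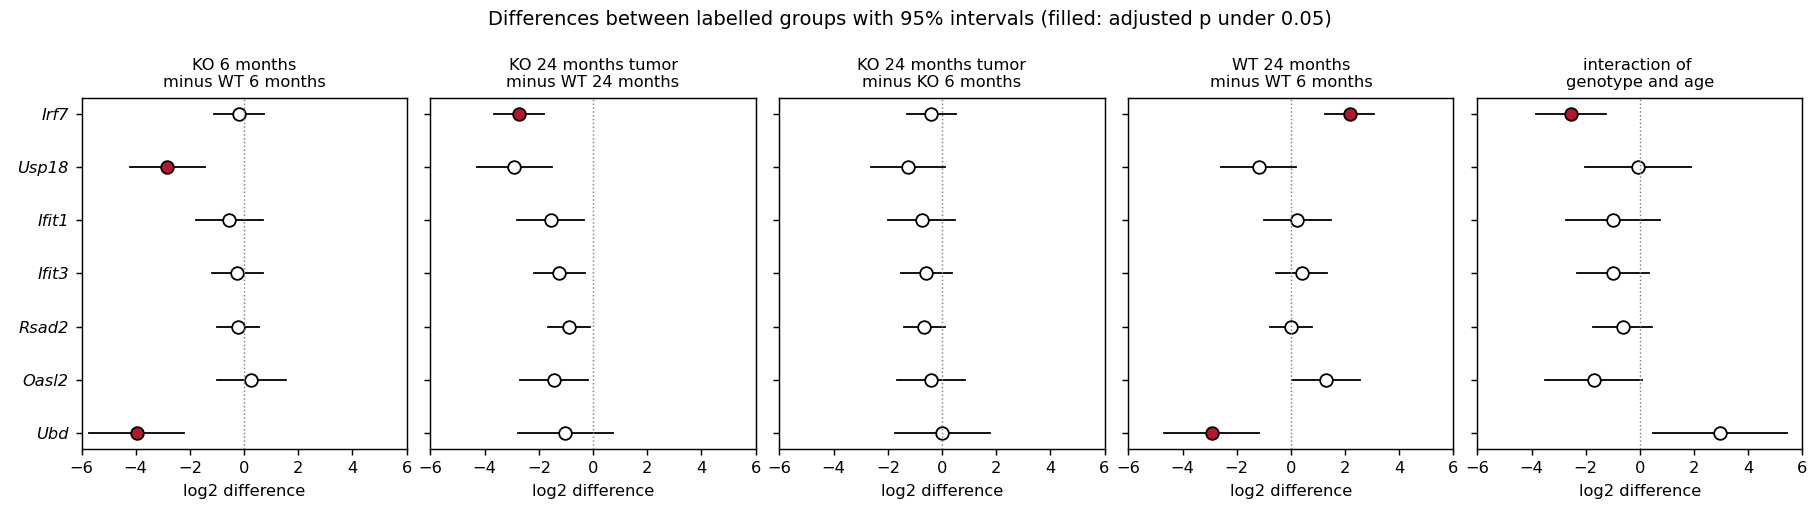
Log2 difference (horizontal axis) of each member's brightest probe set in 4 comparisons of labelled groups and in their interaction, with 95% intervals from limma over 12 arrays. Filled points have an adjusted p under 0.05. Ubd and Usp18 are filled at 6 months, Irf7 at 24 months, and all 7 genes lie below 0 in the comparison of KO 24 months tumor with WT 24 months.

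The order of the 4 group means placed a group labelled WT on top for all 7 genes. Irf7, Ifit1, Ifit3 and Oasl2 were highest in WT 24 months, and Usp18 and Ubd in WT 6 months. Rsad2 averaged 8.18 in both WT groups on its brightest probe set. Of its 2 other probe sets, 1 was highest in WT 6 months (5.53 against 5.28) and 1 in WT 24 months (5.09 against 5.0). The tumor arrays had the lowest mean for 6 genes, and KO 6 months for Ubd. Between neighbours in this order, limma called Irf7 in WT 24 months above WT 6 months and Ubd in WT 6 months above WT 24 months, and no other pair of neighbours passed the threshold. Of these pairs, Usp18 in WT 24 months stood 1.65 above KO 6 months (95% interval 0.27 to 3.02, limma adjusted p = 0.297). Usp18, Ifit3 and the brightest probe set of Rsad2 did not overlap between the KO groups. Nor did Oasl2, for which these groups were not neighbours. The share of all probe sets without overlap is not given here, so nothing is drawn from these separations. For Irf7, WT 24 months stood 2.35 above KO 6 months (limma adjusted p = 0.0608). That pair of groups gave 0 calls among the 9 member probe sets in either direction, where 0.0777% of all probe sets were called higher and 0.0577% lower, and 2 members had a positive difference with an unadjusted p under 0.05. Between the ends of the order, KO 24 months tumor stood below WT 6 months by -4.09 for Usp18 (limma adjusted p = 0.00133) and -3.95 for Ubd (0.00684), 2 of 9 called lower where 6.95% of all probe sets were and 0 higher where 7.19% were. These pairs of groups differ in both age and genotype by label.

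Within the arrays labelled WT 24 months, the members varied more than most of the genome. The 9 probe sets had a range of 1.15 to 3.25 over these 3 arrays, wider than 94.7% to 99.5% of all probe sets, whose median range was 0.31. In linear terms Irf7 differed 4.97-fold between replicates 1 and 2. Oasl2 differed by 3.25 on the log2 scale between replicates 3 and 2. No fold is given for it because it was not known whether replicate 2, at 4.52, was above background. All members but Ubd were lowest in replicate 2. Irf7, Usp18 and Ifit1 were highest in replicate 1, and Ifit3, Rsad2, Oasl2 and Ubd in replicate 3. In the arrays labelled WT 6 months only Usp18 (range 2.23) and Ubd (range 2.96) had spreads of this size, and in KO 6 months and KO 24 months tumor no member range exceeded 0.99. Single members were still wide for their group. The 9 probe sets were wider than 64.2% to 99.8% of all in WT 6 months, with Ubd the widest. They were wider than 44.1% to 99.0% in KO 6 months and 39.7% to 97.4% in KO 24 months tumor, with Ifit1 the widest in both.

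The members deviated together from array to array to unequal degrees. Over the 12 arrays, the deviations of the 6 genes other than Ubd from their group means had pairwise Pearson correlations of 0.25 to 0.94 with a median of 0.67 over 15 pairs. The highest was that of Irf7 with Ifit1 and the lowest that of Usp18 with Rsad2. Those of Ubd with the 6 ran from -0.12 with Usp18 to 0.70 with Ifit3, Rsad2 and Oasl2. These are descriptions over 12 arrays, which share their array between genes, and each of the 6 genes had its widest range in WT 24 months.

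A list of 44 other type I interferon-induced genes, of which 41 were measured, showed the same order of arrays. In WT 24 months 37 of the 41 were lowest in replicate 2, and 16 were highest in replicate 1 and 25 in replicate 3. Of all 45037 probe sets, 14038 were lowest in replicate 2, and 18232 were highest in replicate 1 and 12363 in replicate 3. The list mean per array was 8.27, 7.27 and 8.63 in replicates 1, 2 and 3 of WT 24 months, against 7.59 to 7.82 in WT 6 months, 7.21 to 7.40 in KO 6 months and 7.13 to 7.22 in KO 24 months tumor. Rtp4, which encodes a chaperone of receptor transport, read 10.51, 8.43 and 10.90 in these 3 arrays. Replicate 2 therefore had levels of these genes close to those of the KO groups, while replicates 1 and 3 were above.

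**Figure D3:**
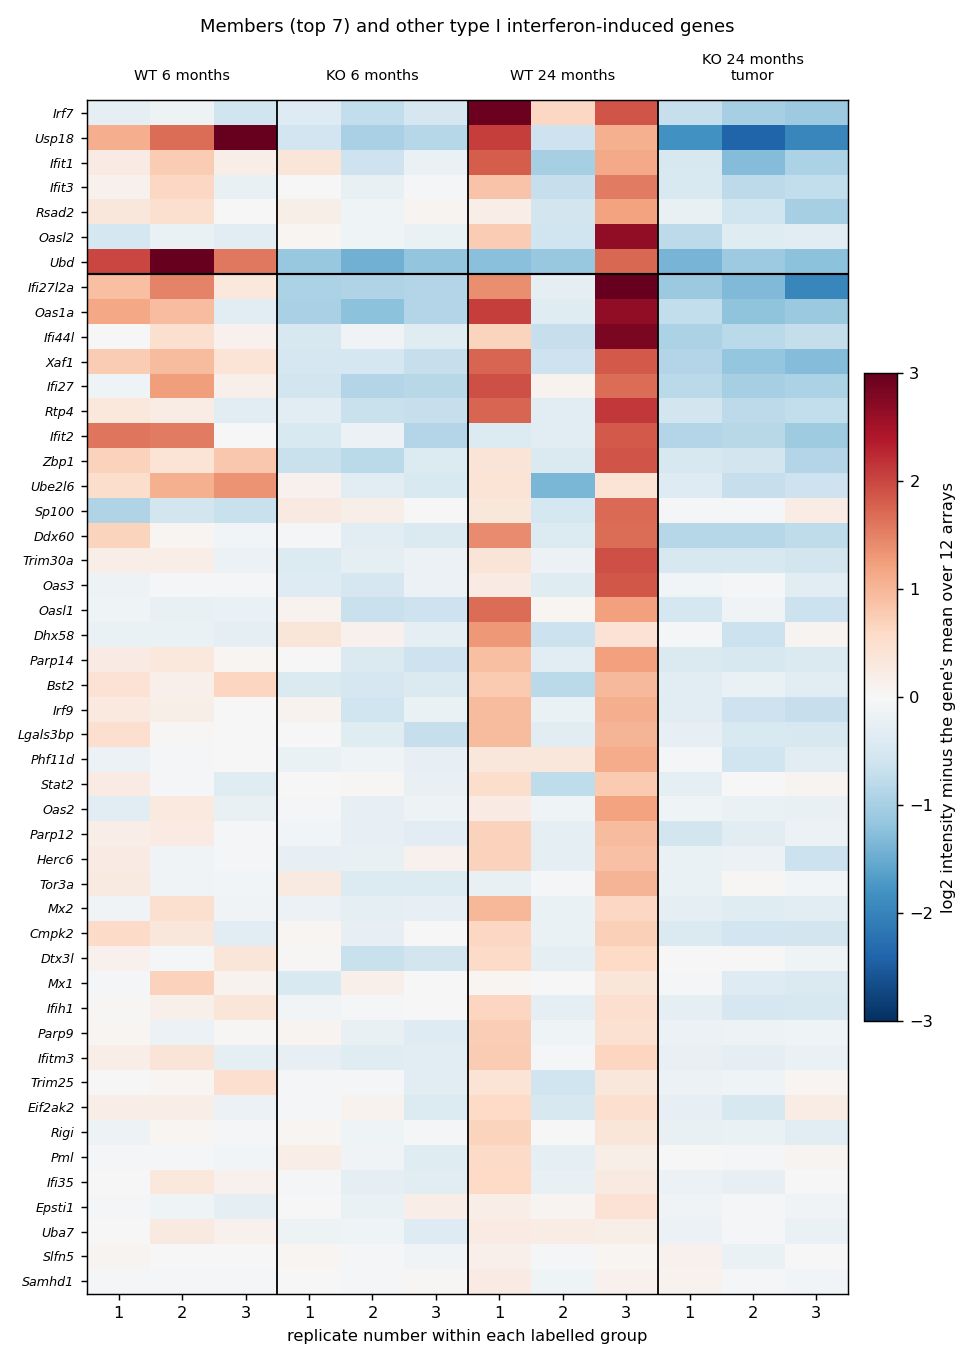
Log2 intensity minus the mean of each gene over the 12 arrays (color, with the scale ending at -3 and 3) for the 7 members, above the line, and 41 other type I interferon-induced genes (rows), by array (columns: replicate number within each labelled group). Most rows are red in replicates 1 and 3 of WT 24 months and not in replicate 2, while Ubd is red only in replicate 3 of that group. Usp18 and Ubd are red in all 3 arrays labelled WT 6 months, as are some other rows such as Ube2l6, Zbp1 and Xaf1.

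In the tests across all probe sets, the other type I genes gave few calls. At 6 months by label, 0 of the 41 rose and 1 fell, the ISG15-activating enzyme gene Uba7 (log2 difference -0.37, SE 0.10, limma adjusted p = 0.0359), where 6.03% of all probe sets were called lower. At an unadjusted p under 0.05 there were 0 higher and 10 lower, where 14.3% and 11.8% of all were, and the median was -0.35 against 0.04 over all probe sets. Zbp1 (-1.27, limma adjusted p = 0.0763) and Ube2l6 (-1.18, 0.0832) did not pass. At 24 months limma called 0 of the 41 in either direction, although all 41 differences were negative, 26 had an unadjusted p under 0.05 (5.83% of all probe sets were lower at that p), and the median was -0.71 against 0.05. Ifi27 (-2.14, limma adjusted p = 0.0717) and Phf11d (-0.92, 0.0852) had the smallest adjusted p. Between the KO groups 0 were called, 0 had an unadjusted p under 0.05, where 6.11% of all did, and the median was -0.10 against 0.00. Between the WT groups 0 were called, 6 higher and 1 lower had an unadjusted p under 0.05, where 9.61% and 11.1% of all did, and the median was 0.36 against 0.00.

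Upstream in the pathway, the ligands gave a single call in the 4 comparisons. Of 16 interferon genes 9 were measured, with a list mean of 4.20 to 4.55 on every array. The single call was Ifna1, higher in KO 6 months than WT 6 months by 0.65 (SE 0.13, limma adjusted p = 0.00873), where 6.08% of all probe sets were called higher. Of the 6 receptor genes, Ifnar2 was higher in the arrays labelled KO 6 months than in WT 6 months (0.56, limma adjusted p = 0.00867) and Ifngr1, a chain of the interferon gamma receptor, was lower (-1.46, 0.00298). Against the same arrays labelled WT 6 months, those labelled WT 24 months also had Ifnar2 higher (0.60, limma adjusted p = 0.00726) and Ifngr1 lower (-1.14, 0.0144). These comparisons share the WT 6 months arrays, and the 4 other receptor genes were not called in either. Of all probe sets 6.08% were called higher and 6.03% lower in the KO comparison, and 3.8% and 4.96% in the WT comparison. At 24 months 0 of the 6 receptor genes were called, with 3 of them below an unadjusted p of 0.05, each lower, where 5.83% of all probe sets were, and a median of -0.21.

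Sensors and signal transducers gave calls only in comparisons with WT 6 months, where calls were also most frequent among all probe sets. At 24 months 0.122% of all probe sets were called higher and 0.115% lower, and between the KO groups 0.0178% and 0.00222%. Among 17 sensors and adaptors of nucleic acids, Tlr3, the receptor for double-stranded RNA, was lower in KO 6 months than WT 6 months (-0.88, limma adjusted p = 0.0204), with a list median of 0.01. It was 1 of 17 called lower and 0 were called higher, where 6.03% and 6.08% of all probe sets were. None of the 17 was called at 24 months, where 4 higher and 6 lower had an unadjusted p under 0.05 against 9.51% and 5.83% of all. None was called between the KO groups, with 1 higher and 0 lower at that p against 3.46% and 2.66% of all. Between the WT groups none was called either, with 4 higher and 0 lower at that p against 9.61% and 11.1% of all. Of 11 of 12 transducers measured, the feedback inhibitor gene Socs3 was lower in KO 6 months than WT 6 months (-1.76, limma adjusted p = 0.00173) and Irf2 was higher (0.74, 0.0326). These calls, 1 in each direction, stand against the same shares of all probe sets. Irf2 was also higher in WT 24 months than WT 6 months (1.27, limma adjusted p = 0.00196), where 3.8% of all probe sets were called higher. Irf9, a subunit of the complex that binds the ISRE, was at -1.16 between KO 24 months tumor and WT 24 months (limma adjusted p = 0.12), where 0 of the 11 were called and 1 was lower at an unadjusted p under 0.05, as 5.83% of all were.

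Genes induced mainly by interferon gamma, the class to which Ubd also responds, were lower in KO 6 months than in WT 6 months for 4 of 17 measured of 20 and higher for 0, where 6.03% of all probe sets were called lower and 6.08% higher. They were Nlrc5, the activator of MHC class I genes (-1.33, limma adjusted p = 0.0173), Ifi47 (-1.66, 0.0353), the chemokine gene Cxcl10 (-2.06, 0.0422) and Gbp6 (-3.13, 0.0431), and the list median was -1.02 against 0.04 over all probe sets. Of 17 genes of MHC presentation measured of 20, 6 were lower and 0 higher in the same comparison, against the same shares of all probe sets, with a median of -0.51. The peptide-loading chaperone gene Tapbp was at -1.27 (limma adjusted p = 0.00247), Erap1 at -0.84 (0.00439), Psme1 at -0.64 (0.00523) and H2-K1 at -0.45 (0.0115). At 24 months 0 of either list were called, although 6 interferon gamma genes and 8 MHC genes, each of them lower, had an unadjusted p below 0.05, where 5.83% of all probe sets did, and all 17 differences of each list were negative with medians of -1.15 and -0.72 against 0.05. Nlrc5 and Ciita stand in both lists.

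Of the genes that act with the modifiers ISG15 and FAT10, 1 in each list was called. Of 5 genes of ISG15 conjugation only Uba7 was called at 6 months by label, lower as given above, where 6.03% of all probe sets were. Ube2l6, the conjugating enzyme of ISG15, was at -1.18 (limma adjusted p = 0.0832). Both also stand in the type I list. Of 5 measured of 6 genes of FAT10 conjugation and delivery, only the autophagy receptor gene Sqstm1 was called. It was lower in KO 6 months (-0.44, limma adjusted p = 0.0184) and in WT 24 months (-0.66, 0.00225), each against WT 6 months. Of all probe sets 6.03% and 4.96% were called lower in these comparisons. Uba6, the activating enzyme of FAT10, was at 0.13 (limma adjusted p = 0.664) in the first of these, and Ube2z was at -0.10 (0.496). Among 18 genes of the NF-kB and TNF response measured of 19, 3 were called lower and 1 higher in KO 6 months than WT 6 months. Of all probe sets 6.03% and 6.08% were. The adhesion molecule gene Icam1 (-2.0, limma adjusted p = 0.00768), Tnfaip2 (-1.07, 0.0118) and Cxcl10 were lower and Sod2 was higher (0.61, 0.00929), with a list median of -0.26. At 24 months 0 were called. There 11 lower and 1 higher had an unadjusted p under 0.05, where 5.83% and 9.51% of all did, and the median was -0.54. Between the WT groups Cxcl1 was called higher at 24 months (2.0, limma adjusted p = 0.0229), where 3.8% of all were.

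Markers of other liver cells moved with these groups of arrays. The Kupffer cell markers, 12 genes of the resident liver macrophage, had a list mean of 8.04, 8.99 and 11.23 in replicates 1, 2 and 3 of WT 24 months, against 7.75 to 8.59 in WT 6 months, 7.89 to 8.18 in KO 6 months and 7.30 to 7.68 in KO 24 months tumor. On the log2 scale the sum of their linear intensities ran from 12.26 to 15.61 in WT 24 months, 12.21 to 12.80 in WT 6 months, 12.02 to 12.21 in KO 6 months and 11.40 to 11.81 in the tumor arrays. Clec4f read 9.58, 10.04 and 12.44 and Timd4 5.52, 5.69 and 9.81 in replicates 1, 2 and 3 of WT 24 months, whereas Cd163 read 7.65, 8.65 and 5.57. Kupffer markers were lowest in replicate 1 for 11 of 12 genes, where Irf7, Usp18 and Ifit1 were highest, and highest in replicate 3 for 11 of 12. Of all 45037 probe sets, 11438 were lowest in replicate 1 of WT 24 months and 12363 were highest in replicate 3. Replicate 3 was also highest for all 17 interferon gamma genes and all 17 MHC genes, and the class II gene H2-Aa, chosen after its values were seen, read 9.21, 9.16 and 13.77. The part of these cells in the levels of Ifit3, Rsad2, Oasl2 and Ubd in replicate 3 was not tested, and in bulk liver fewer cells of a type and less RNA per cell cannot be told apart.

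The arrays labelled WT 6 months, where Ubd and Usp18 were highest, had low sinusoidal endothelial markers. Their list mean over 12 genes was 6.69 to 7.39, against 8.58 to 8.77 in KO 6 months, 8.07 to 9.24 in WT 24 months and 8.37 to 8.58 in KO 24 months tumor, and the log2 of their summed intensity was 10.67 to 11.35 against 12.12 to 13.11 over the other groups. Of the 12 genes 11 were called higher in KO 6 months than in WT 6 months, with a median of 1.74, and stellate cell markers were called higher for 4 of 8. Of all probe sets 6.08% were called higher there. Markers of neutrophils and monocytes, 4 of 6 measured, had a list mean of 8.26 in replicate 1 of WT 6 months against 6.25 and 6.72 in replicates 2 and 3, whereas Ubd was highest in replicate 2. Markers of T, B and NK lymphocytes, 11 of 13 measured, averaged 4.97 to 5.22 in WT 6 months and 5.18 to 5.23 in KO 6 months, and those of dendritic cells, 6 of 7, 4.88 to 5.04 and 4.97 to 5.02. Biliary markers, 5 of 6, averaged 4.95 to 5.43 in WT 6 months and 5.03 to 5.29 in KO 6 months. The part of these cells in the differences of Ubd and Usp18 was not tested.

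**Figure D4:**
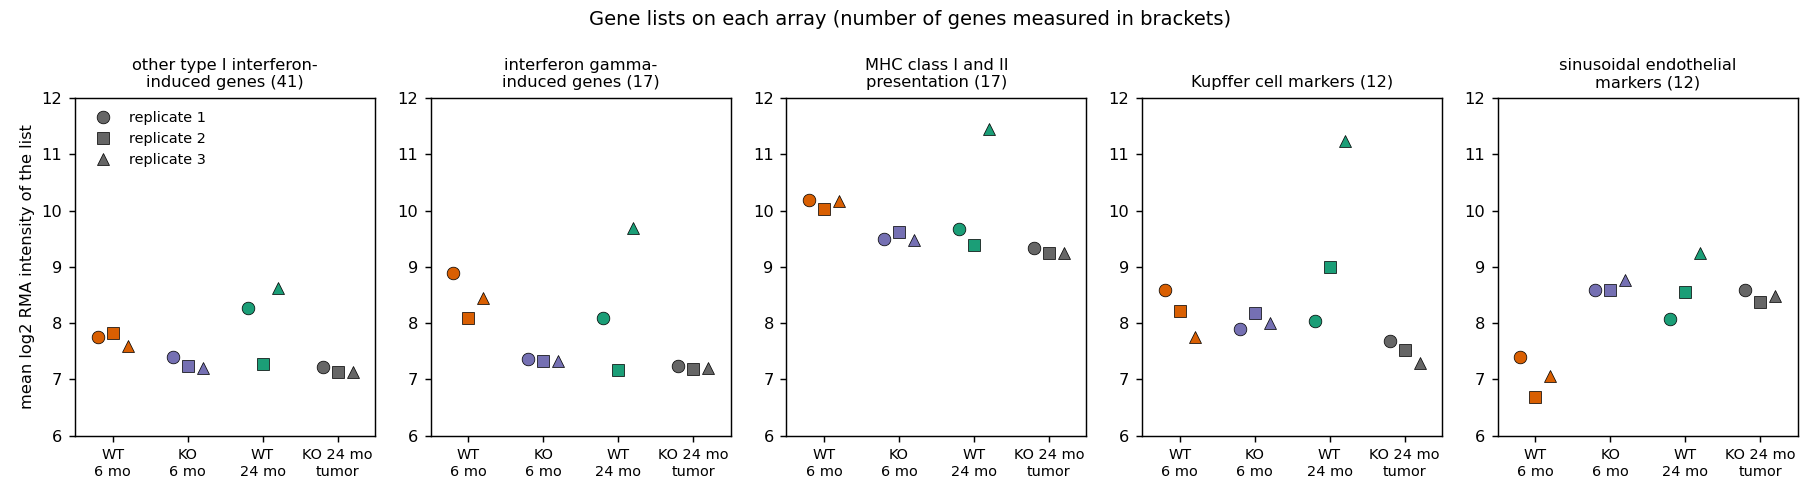
Mean log2 RMA intensity (vertical axis) of 5 gene lists on every array, by labelled group with ages in months (horizontal axis). Each point is the mean over the measured genes of a list on 1 array, and symbols mark replicate number. Replicate 2 of WT 24 months is the lowest of its group for the type I and interferon gamma lists, at 7.27 and 7.17, while Kupffer cell markers run from 8.04 in replicate 1 to 11.23 in replicate 3.

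The genes whose pattern over the 12 arrays was most like the members were sought among 1545 genes with a mean of at least 6 and an SD of at least 0.5. For the mean of the 6 standardized interferon-induced genes they were Irf9 (r = 0.97), Xaf1 (0.96), Parp14 (0.95), Gbp3 (0.94) and Rtp4 (0.94), all of them on the interferon lists. Xaf1 read 9.18, 9.38 and 8.86 in WT 6 months, 7.94, 7.91 and 7.75 in KO 6 months, 10.17, 7.81 and 10.28 in WT 24 months and 7.54, 7.27 and 7.14 in KO 24 months tumor, with replicate 2 of WT 24 months again among the KO arrays. For Ubd they were Rp2 (r = 0.97), Kctd17 (0.96), Mpp1 (0.96), the cytokine receptor kinase gene Jak3 (0.96) and Ubqln2 (0.95), none of them on an interferon list. Jak3 read 7.91, 8.04 and 7.31 in WT 6 months and 6.49, 6.18 and 7.67 in WT 24 months, and it was 6.23 to 6.45 in the 2 KO groups. As for Ubd, the high arrays were those labelled WT 6 months and replicate 3 of WT 24 months. These correlations describe 12 arrays that every gene shares, and no test was made of them.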

How the data were processed

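RNA of 12 livers or tumors was hybridised by the authors to 1 array each, and what they deposited is the log2 intensity that RMA gives (background correction, quantile normalization and probe summary), whose software version is not given in the sources used here. RMA forces similar distributions on all arrays (medians 5.41 to 5.45), so a change shared by most genes cannot be seen. Of 45101 probe sets 64 controls were left out. Genes were taken from the platform annotation, where 34958 probe sets list 1 gene, 932 several and 9211 none. A gene was represented by its brightest probe set over the 12 arrays.

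The 4 groups were fitted together with limma 3.58.1 in R 4.3.3, and p-values were adjusted by Benjamini-Hochberg over 45037 probe sets, with a call at an adjusted p under 0.05. With 3 arrays a group the number of arrays limits the precision. Each p-value sets a difference against a spread between animals that is pooled over the 4 groups and moderated over all probe sets. The members and the 19 gene lists (224 genes, 196 measured) were chosen with earlier results of these data known, so no list was given a test of its own. Lists share genes and are not independent of each other. For example, Zbp1 is in the sensor and type I lists, Irf9 in the transducer and type I lists, and Cxcl10 in the interferon gamma and NF-kB lists. Named genes were the members, Iqgap2 and Afp, from every list up to 4 genes of smallest adjusted p in each of 4 comparisons, cell markers, and the 5 genes with the highest Pearson correlation with Ubd or with the mean of the others. Promoters are RefSeq entries. The fit was checked on simulated data. Alternatives were the fold minimum, filter, centring, prior, replicate block, pairs of groups and left-out arrays. The significance analysis of microarrays (SAM) that the study used was not run.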

Additional observations from a re-analysis of the deposited data

Results flagged for a closer look

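The difference of Irf7 between the groups labelled 24 and 6 months differed between the genotypes. It rose by 2.17 between the WT groups and was at -0.39 between the KO groups, and the interaction of -2.56 (limma adjusted p = 0.0400, 3 arrays a group) tested this difference itself. The value does not depend on whether the label WT 6 months is exchanged with KO 24 months tumor. Its call was lost in 10 of the 12 fits with an array left out, at adjusted p values of 0.0552 to 0.102.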

How the results depend on the processing

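Of 683 member differences under 20 settings, 640 kept their side of the threshold, 32 lost the call and 11 gained it. Most of the 640 were not called in the main fit and so had no call to lose. None that was called reversed, and 17 values, called under neither setting, changed sign. With only the groups compared in the fit, the count called lower at 24 months was 0 instead of 1, that between the KO groups was 1 instead of 0, and the WT groups had 0 higher and 0 lower. The interaction could not be fitted from 2 groups. With the replicate number as a replicate block, 0 members were called lower between the WT groups, and no other count changed. Over all probe sets, same-numbered arrays showed no shared deviation (correlations of deviations -0.24 to 0.19 over 18 pairs). This does not exclude a pairing by number, and the correlation was not computed for the members alone. Most member probe sets were lowest in replicate 2 in WT 24 months and KO 6 months, but not in the 2 other groups. Centring on 3 housekeeping genes gave 2 lower at 24 months and 1 higher in the interaction. A minimum mean of 6 left out Ubd and Oasl2 and gave 1 lower at 6 months and 0 lower between the WT groups. A trended and robust prior gave 0 lower between the WT groups and 0 lower in the interaction. A fold minimum of 3 changed no count. Leaving out 1 array at a time, the count called lower at 24 months ran from 0 to 4, and between the WT groups the counts were 1 to 3 higher and 0 to 1 lower. In the interaction they were 0 to 1 higher and 0 to 3 lower. The order of the group means was kept for 4 to 7 of the 7 genes, with 4 when replicate 3 of WT 24 months was left out. The causes were not tested, except that fewer arrays also leave fewer degrees of freedom. Intensity limits the low members, since Ubd, Oasl2 and 2 Rsad2 probe sets averaged under 6 and RMA compresses dim probe sets.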
